A study of Mus musculus with 8 samples.

Results

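Anapc10 encodes a subunit of the anaphase-promoting complex, and 173 of the 8492 cytosine sites in the deposited table (2.04%) lie inside its gene span. The sites were found by position alone, as every listed site between 79711736 and 79777321 on chromosome 8 of mouse build GRCm38, the span RefSeq gives for the gene. The gene was selected on its high levels in these same libraries, so the levels are given below as a description and with no test. The data are RNA bisulfite sequencing of polyadenylated RNA from bone marrow derived mast cells of C57BL/6 mice, which were either wild type or Tet2-/-. Tet2 oxidises 5-methylcytosine. Marrow cells grew for 4 to 6 weeks with IL-3 at 10 ng/ml and SCF at 5 ng/ml, and cultures were used when more than 97.5% of the cells carried FcεRI and c-Kit. The labels describe 8 libraries, 4 per genotype, as 2 biological replicates with 2 technical replicates each; they do not say whether the biological replicates were separate animals, nor how the Tet2 allele was made.

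The table holds levels for the 4 Tet2-/- libraries, at sites that its title line calls specific to the Tet2-deficient group. Levels of wild-type cells were not used here, and nothing below compares the genotypes. A methylation level is the percentage of reads in which cytosine remained after bisulfite treatment, which turns unmodified cytosine into uracil; unmodified cytosine that escaped conversion would count as well. Read numbers and strands were not analysed, so the exact depth behind a level is unknown. The Anapc10 levels took only 24 and 21 distinct values in the libraries of biological replicate 1. In those of biological replicate 2 they took 38 and 29. So few distinct values can arise when few reads cover a site, which was not tested, so levels of 100% may rest on few reads. Levels in the table ran from 10% to 100%, and a site of the gene under 10% would therefore not be seen. The libraries come from bulk cultures, so fewer cells of a type and less RNA per cell cannot be told apart. Marker genes could not be used to check the cell type, since the table gives no expression. Values are means over sites per library, then over technical replicates, with the SD over 2 biological replicates. With 2 biological replicates of 1 genotype, no test between groups was made.

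The anaphase-promoting complex, or cyclosome, is a large ubiquitin ligase of the cell cycle. It marks securin and the mitotic cyclins for destruction by the proteasome and so lets sister chromatids part and cells leave mitosis. Anapc10, also called APC10, carries the DOC domain and, together with a coactivator (Cdc20 or Cdh1, the product of Fzr1), forms the surface that recognises the destruction box of a substrate.

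The Anapc10 sites occupied 1 short part of a long gene. The gene span is 65.6 kb and runs on the plus strand, and all 173 sites lay between 79753958 and 79757132, within 3175 bases or 4.84% of the span. The first site was 42.2 kb from the RefSeq start of the gene and the last was 20.2 kb from its end. None of the sites fell in the 2 RefSeq promoter windows of the gene, which together run from 79711513 to 79711898. Of all 8492 listed sites, 2 fell in a promoter window of any gene, so nothing particular to Anapc10 is read from this. Of 40 other RefSeq genes within 1 Mb on either side, 14 of them protein-coding, 0 had a listed site. Over the whole annotation 110 of 49997 genes had one (0.22%), so nothing particular to the neighbours is read from this count. The neighbours include Abce1, a ribosome recycling factor whose span overlaps that of Anapc10 by 5 bases at the start, and the pseudogene Gm45434, which lies inside the Anapc10 span but away from the sites. The nearest listed sites beyond the gene were 22029 kb upstream, outside any gene span and at a mean of 69.3%, and 1779 kb downstream in Inpp4b at 57.9%. The Anapc10 sites made up 24.2% of the 716 listed sites of chromosome 8. Exon structure was not used here, so whether the sites are exonic, intronic or untranslated is not stated.

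Sites up to 500 bases apart were joined into stretches, which gave 3. The first stretch had 29 sites between 79753958 and 79754225, the second had 143 sites between 79754806 and 79756073, and the third was a single site at 79757132. The second stretch thus held 82.7% of the sites, in 1268 bases. Distances between the stretches were 581 and 1059 bases. With a limit of 100 bases the same sites fell into 7 blocks, numbered here in the direction of the gene: blocks 1 and 2 in the first stretch, blocks 3 to 6 in the second, and the single site as block 7. Empty gaps of 118 bases between blocks 1 and 2, and of 117, 106 and 191 bases between blocks 3, 4, 5 and 6, divided them. Sites were packed at 10.8 per 100 bases in the first stretch and 11.3 in the second, close to the median of 11.1 over the 146 stretches of the table with 10 or more sites. Block 2 was the densest, with 15 sites in 53 bases. Neighbouring sites were a median of 4 bases apart, as over the whole table. At 35 of 170 steps between neighbours (20.6%) the next base was itself a listed site, against 23.0% in the whole table, and the longest run of directly adjacent sites was 4.

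**Figure D1:**
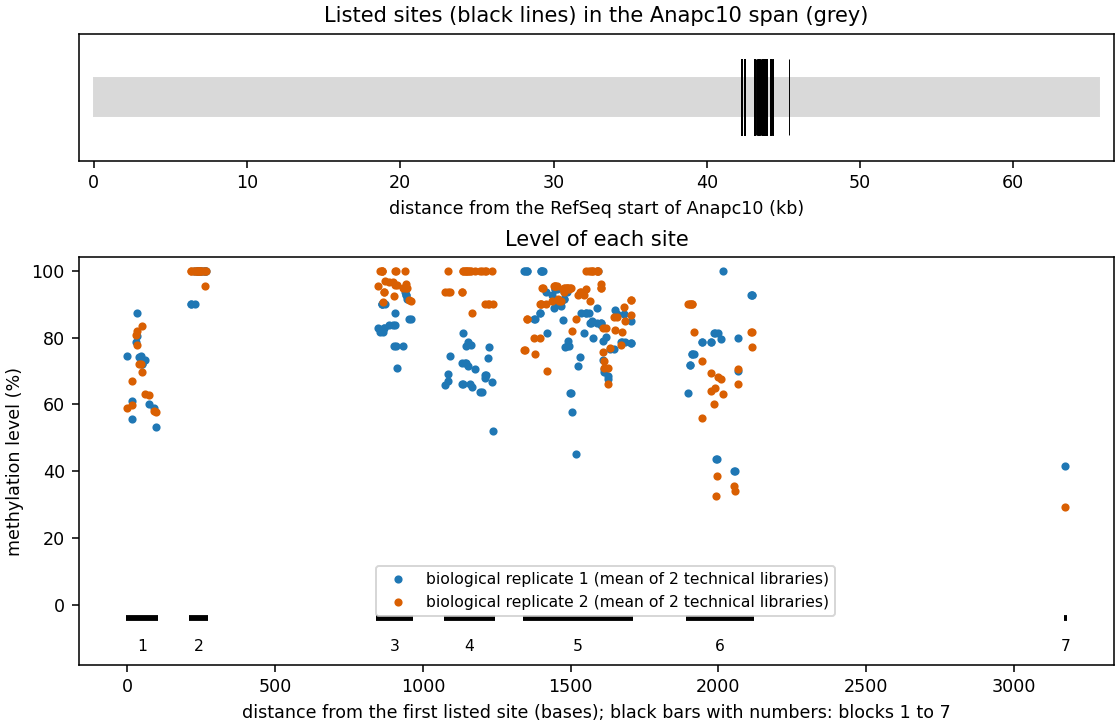
The upper panel shows the Anapc10 span in grey with a black line for each of the 173 listed sites, against distance from the RefSeq start in kb. The lower panel plots the methylation level of each site in percent against distance from the first site in bases, with 1 point per biological replicate, and black bars mark blocks 1 to 7; block 2 sits near 100% and block 7 is the lowest.

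Levels were high in every library. In biological replicate 1 the first library had a mean over the 173 sites of 84.3% and the second one of 76.6%. The means of the 2 libraries of biological replicate 2 were 85.0% and 89.5%. The second library of replicate 1 was the lowest, and both libraries of replicate 2 were above both of replicate 1. The gene mean was 83.8% ± 4.80 (SD, n = 2), while the mean over all 8492 sites was 51.7% ± 0.154 (SD, n = 2). Medians over the Anapc10 sites were 87.5% and 80% in replicate 1 and 90% and 92.3% in replicate 2. Single site readings ran from 18.2% to 100%.

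All 4 libraries read 50% or more at 155 of the 173 sites (89.6%), where the background over all listed sites was 33.6%. A level of 100% in every library was read at 12 sites (6.94%), against a background of 0.836%. The gene was chosen for high levels, so nothing is read from these shares. Taken library by library, 43 and 40 sites stood at 100% in replicate 1 (24.9% and 23.1%) and 71 and 79 sites in replicate 2 (41.0% and 45.7%). The background over all listed sites was 7.35% and 6.26% in replicate 1 and 5.72% and 7.47% in replicate 2. Nothing is read from these shares either. Over all listed sites the median of the site means was 49.2%, while 5 Anapc10 sites (2.89%) had a mean under 50%. The single site of block 7 was the lowest, at 35.4% ± 8.59 (SD, n = 2). The other 4 lay in block 6 as close couples. The couple at 79755951 and 79755952 averaged 38.1% ± 7.98 and 41.2% ± 3.62, and the couple at 79756010 and 79756015 averaged 37.7% ± 3.24 and 37.05% ± 4.18 (SD, n = 2 for each).

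Block 2 had the highest levels. Its 15 sites, from 79754173 to 79754225, averaged 100% and 96% in the libraries of replicate 1 and 100% and 99.4% in those of replicate 2, for a mean of 98.8% ± 1.20 (SD, n = 2). Of the 12 sites at 100% in every library, 11 lay here, within 42 bases between 79754184 and 79754225. The other was at 79755549 in block 5. In the remaining 4 sites of block 2, a single library fell short of 100%: the second of replicate 1 at 3 sites, with 80% at the lowest, and the second of replicate 2 at 1 site, with 90.9%. No other stretch of 10 or more sites in the table had as many sites at 100% in every library as the 11 of the first Anapc10 stretch; the next, in Cnrip1, had 10 of 27 sites.

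Block 1, which begins 215 bases before block 2, stood lower. Its 14 sites averaged 67.0% and 72.4% in replicate 1 and 63.4% and 74.6% in replicate 2, so the biological replicates overlapped, and the mean was 69.4% ± 0.531 (SD, n = 2). The order of the libraries turned within its 98 bases. Over the first 7 sites, the second library of replicate 1 was the highest of the 4 at 87.5% and the first library of that replicate the lowest at 58.7%. Over the last 7 sites these changed places, at 57.3% and 75.4%, while the libraries of replicate 2 stood at 63.1% and 70.4%. The split into 7 and 7 sites was chosen after the values were seen.

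In block 3 the means of the biological replicates were apart. Its 23 sites averaged 84.6% and 85.5% in replicate 1 and 96.3% and 95.9% in replicate 2, with a mean of 90.6% ± 7.83 (SD, n = 2). As means over the block, technical replicates lay within 1 point of each other, and replicate 2 was the higher by 11.1 points. Single sites differed more, in both directions. The libraries of replicate 1 read 100% and 80% at 79754819, and 71.4% and 100% at 79754911. Replicate 2 was above replicate 1 in both libraries at 11 of the 23 sites (background over all listed sites 15.7%), and the replicates overlapped at 12. Close sites are not independent, so nothing is read from this count. With the columns paired the other way, by their second number, the means of the block were 90.5% and 90.7%. The gap therefore depends on how the columns are read.

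Block 4 varied most between libraries. The means of its 26 sites were 83.8% and 55.9% in replicate 1 and 98.3% and 95.3% in replicate 2, with a mean of 83.3% ± 19.0 (SD, n = 2). The second library of replicate 1 was far below the other 3 and was the lowest at 24 of the 26 sites. It read 100% at 0 of them, against 3 sites in its technical partner and 24 and 18 sites in replicate 2. The distance between the technical libraries of replicate 1, 27.97 points, was about as large as that between the biological replicates, 26.9 points.

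Block 5 was the longest, with 70 sites in 363 bases and a mean of 86.6% ± 3.48 (SD, n = 2). Library means were 86.7% and 81.7% in replicate 1 and 87.1% and 91.1% in replicate 2. Replicate 2 was above replicate 1 in every library pairing, although the first libraries of the 2 replicates differed by little. The widest gap at a single site between biological replicates was at 79755477 in this block, where replicate 1 read 57.1% and 33.3% and replicate 2 read 100% and 71.4%.

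Block 6 was lower again, at 70.9% ± 3.81 (SD, n = 2) over 24 sites. Here the first library of replicate 2 was the lowest at 59.1%, and the others stood at 79.5%, 67.6% and 77.3%. The widest gap in the opposite direction was at 79755974, where both libraries of replicate 1 read 100% and those of replicate 2 read 54.5% and 71.4%. At the single site of block 7 the readings were 42.9% and 40% in replicate 1 and 28.6% and 30% in replicate 2, so replicate 1 was the higher.

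**Figure D2:**
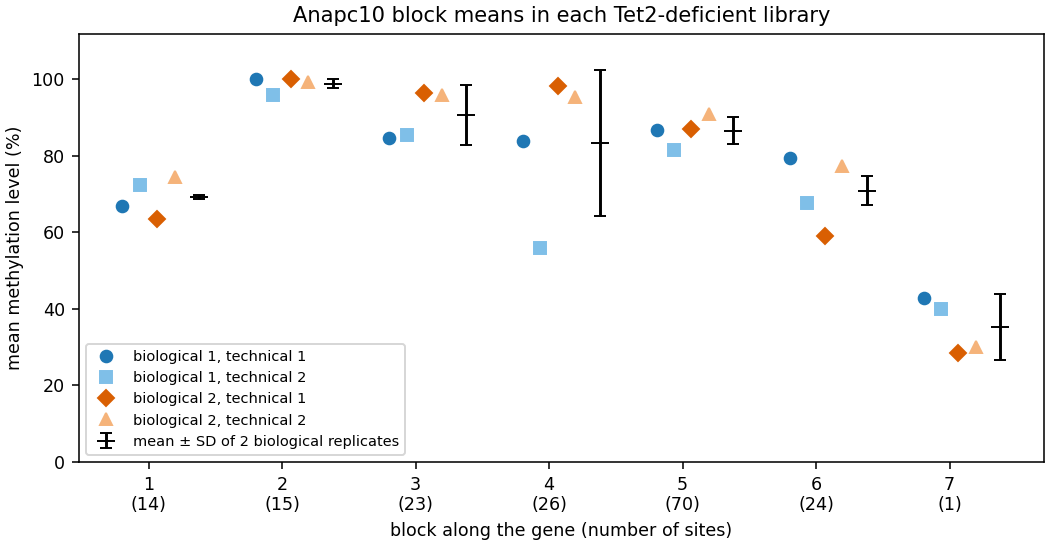
Mean methylation level in percent (vertical axis) of the sites of each Anapc10 block (horizontal axis, in order along the gene, with the number of sites in parentheses); coloured symbols are the 4 Tet2-deficient libraries, and the black tick and bar are the mean and SD of 2 biological replicates. Block 2 is highest at 98.8%, block 7 lowest at 35.4%, and the libraries spread widest in block 4, from 55.9% to 98.3%.

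Ordered by level, block 2 came first, then blocks 3, 5, 4, 6, 1 and 7. Blocks 1 to 3, 5 and 6 all differed from block 4 by less than its SD, a measure that leaves out that the blocks share libraries. Compared within libraries, block 2 was above block 4 in all 4. Blocks 1, 3, 5 and 6 were each above block 4 in some libraries and below it in others, so its place among them is not firm. Blocks 3 and 5 differed by less than the SD of block 3, and blocks 6 and 1 by less than the SD of block 6. Block 2 exceeded block 3 by 8.25 points, and block 5 exceeded block 6 by 15.8 points, more than the SD of any of these blocks. The 2 longer stretches, which each combine several blocks, had means of 84.6% ± 0.364 and 84.0% ± 5.79 (SD, n = 2 for both) that differed by less than the spread of the second.

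The difference between the biological replicates was uneven along the gene. Over all sites replicate 2 was higher by 6.78 points. That difference was 3.22 points without block 4 and 2.94 points without the second library of replicate 1. Block 4 had the widest gap of the blocks and that library was the lowest, so a smaller difference was fixed in advance. At 66 sites (38.2%) both libraries of one replicate were above both of the other, where the background over all listed sites was 30.4%. With the columns paired the other way, by their second number, it was 36 sites (20.8%) against a background of 26.3%, so whether the share lies above or below the background depends on a reading that the table cannot settle. With 2 libraries against 2, the smallest two-sided exact permutation p a single site allows is 0.333, so no site was tested. Replicate 2 was the higher at 51 of these sites, or 29.5% of all (background 15.7%), and replicate 1 at 15 sites, or 8.67% (background 14.7%). Without block 4, which held none of those 15 sites, replicate 2 was the higher at 33 sites and replicate 1 at 15. The 51 sites were spread over block 3 with 11, block 4 with 18, block 5 with 21 and block 6 with 1. The 15 sites lay in block 5 with 8, block 6 with 6 and block 7 with 1. No site of blocks 1 and 2 separated the replicates. In block 2 this was fixed by ties, since each of its sites stood at 100% in every library or in all but a single one. Close sites had like deviations between libraries, as given below, and are not counted as independent.

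Technical and biological replicates differed by similar amounts. Averaged over the 173 sites, the technical libraries differed by 14.9 points in replicate 1 and by 8.98 points in replicate 2. Pairs of libraries from different replicates differed by 10.2 to 19.0 points. Technical pairs averaged 11.9 points and biological pairs 14.3 points, and over all listed sites both kinds averaged 13.5 points. The second library of replicate 1 was alone the lowest at 86 of the 173 sites, and the second library of replicate 2 at 2. Over the whole table those libraries were alone the lowest at 2705 and 1475 of 8492 sites.

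**Figure D3:**
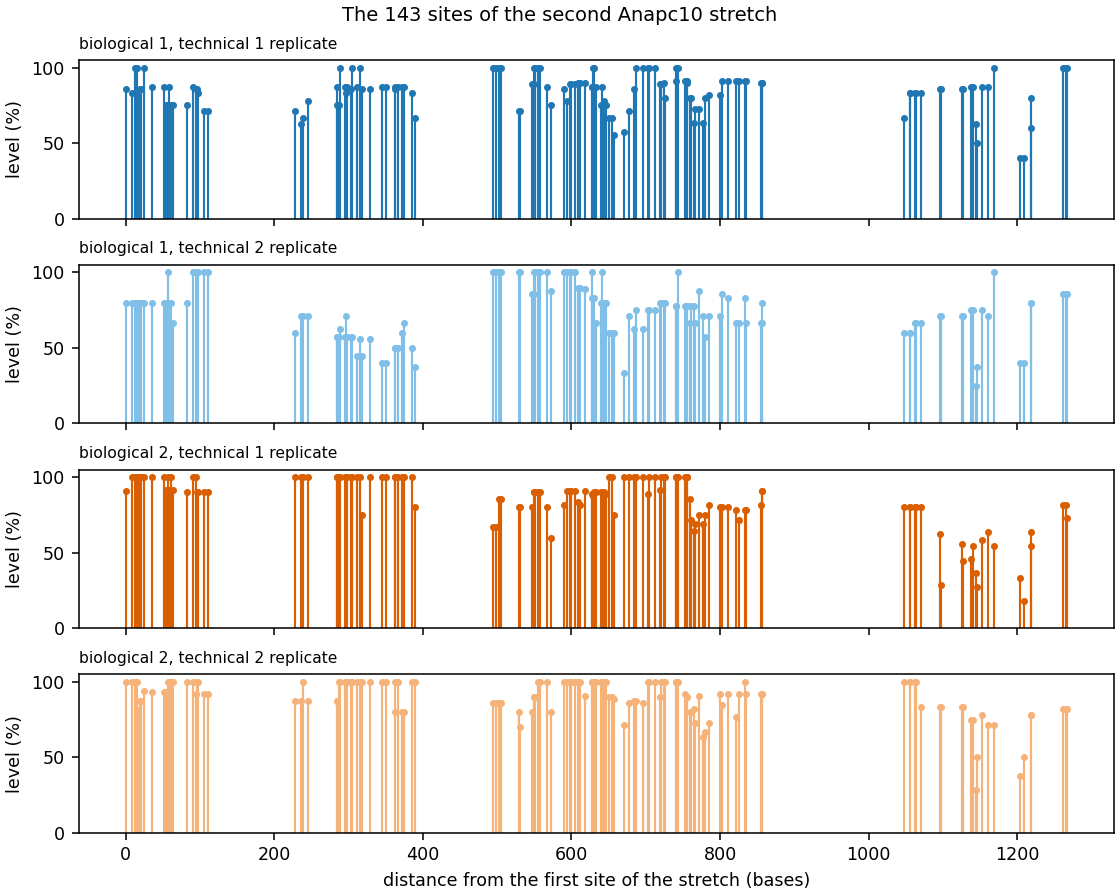
Methylation level in percent (vertical axes) of each of the 143 sites of the second Anapc10 stretch against distance from its first site in bases, with 1 panel per Tet2-deficient library. The second library of biological replicate 1 is low between 228 and 389 bases (block 4, mean 55.9%), where replicate 2 is near 100%, and the first library of replicate 2 is low beyond 1048 bases (block 6, mean 59.1%).

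Close sites had similar levels within a library. Neighbouring listed sites 1 to 10 bases apart (142 couples) differed by 5.35 points on average, against 5.66 points over the 6597 such couples in the table. At 11 to 50 bases (24 couples) the difference was 9.23 points. Of the 142 close couples, 24 (16.9%) had the same level in each of the 4 libraries, to within rounding of the deposited values. The share among all such couples of listed sites was 6.61%. Of these 24, 8 were at 100% throughout, and the other 16 were at 100% in some of the libraries. The gene was chosen for high levels, and how far readings of 100% account for the share was not tested. Deviations of the sites from their own mean and from the library mean correlated at 0.719 over 289 site pairs 1 to 10 bases apart and at 0.493 over 929 pairs 11 to 50 bases apart. The value was 0.10 over 1520 pairs at 51 to 150 bases and -0.222 over 2033 pairs at 151 to 300 bases. These pairs come from the same 4 libraries and reuse the same sites, so the values only describe how far along the RNA the libraries deviate together.

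Among the 53 genes with 10 or more listed sites, Anapc10 ranked 4 by mean level and 12 by number of sites. The genes above it were Vps13b, a lipid transfer protein, with 21 sites at 91.6% ± 1.30, Rab27b, a small GTPase of granule release, with 219 sites at 90.8% ± 1.35, and Cnrip1, a protein that binds the cannabinoid receptor, with 51 sites at 84.5% ± 0.692 (SD, n = 2 for each). The level of Cnrip1 lay within the SD of Anapc10. Sites at 100% in every library made up 42.9% of the Vps13b sites, 19.6% of those of Cnrip1, 6.94% in Anapc10 and 6.39% in Rab27b. The Rab27b sites formed 4 stretches and those of Cnrip1 and Vps13b 2 each. Of the 19 stretches with 100 or more sites in the table, the second Anapc10 stretch had the highest level, at 84.0%. The next was a stretch of Pde1c with 126 sites at 78.2% ± 0.344 (SD, n = 2). The gap of 5.80 points between them was about the SD of the Anapc10 stretch. That first place holds only with the limit of 100 sites, since a Cnrip1 stretch of 27 sites stood at 94.6% ± 1.81 (SD, n = 2). The gene was chosen for high levels, so nothing is read from these ranks. Inpp4b, the nearest gene with sites on chromosome 8, had 508 sites in 20 stretches at 51.7% ± 0.844 (SD, n = 2).

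The library means of Anapc10 lay farther apart than those of the 3 genes with higher levels, a difference that was not tested. The range of its 4 library means was 12.9 points, against 4.50 in Rab27b, 5.52 in Vps13b and 6.23 in Cnrip1. By this range it ranked 16 of the 53 genes, and by the gap between biological replicates it ranked 10. By Euclidean distance over the 4 library means, a measure that mainly follows the overall level, the nearest genes to Anapc10 were Cnrip1 at 9.29 points, Phf14, a PHD finger protein, at 12.2 points, and Tpsg1, the gamma tryptase of mast cells, at 14.8 points. Phf14 had 38 sites at 78.0% ± 3.09 and Tpsg1 20 sites at 80.6% ± 4.47 (SD, n = 2 for both). The range of the library means was 13.2 points in Phf14 and 11.6 in Tpsg1, close to the 12.9 of Anapc10, while that of Cnrip1 was 6.23. In Phf14, as in Anapc10, the second library of replicate 1 was the lowest, at 70.2%, and the second of replicate 2 the highest, at 83.5%. In Tpsg1 the first library of replicate 2 was the lowest at 74.6%. The distance was also taken after each gene's own mean was removed, a choice made after the values were seen, so that only the pattern over libraries counts. Phf14 was then the nearest of the other genes, at 3.74 points, while Cnrip1 ranked 24 at 9.20 points and Tpsg1 ranked 38 at 13.3 points. The second library of replicate 2 was 5.64 points above the gene's own mean in Anapc10 and 5.43 points above it in Phf14, and in Cnrip1 it differed from that mean by -1.67 points. With 4 libraries, these distances are a description.

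**Figure D4:**
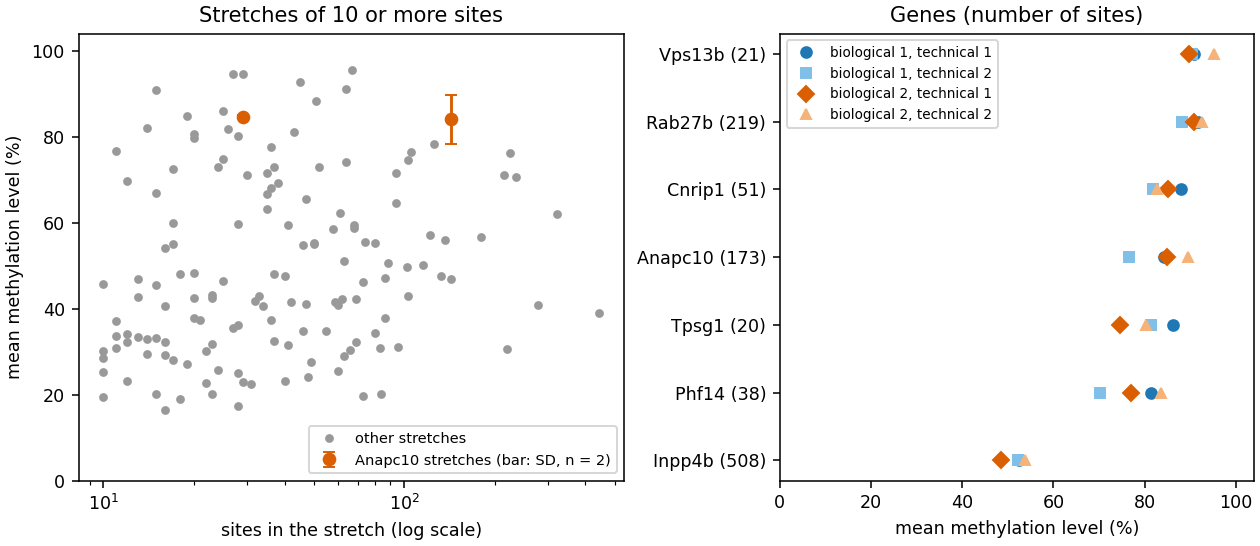
Left, mean methylation level in percent of each of the 146 stretches of 10 or more sites against its number of sites on a log scale, with the 2 Anapc10 stretches in orange and bars for the SD of 2 biological replicates. Right, mean level of the sites of 7 genes in each of the 4 Tet2-deficient libraries, with the number of sites in parentheses; Anapc10 runs from 76.6% to 89.5%, and Inpp4b lies near 51.7%.

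The other genes of the complex had no listed site, which is also the usual state of a gene here: 96 of 21900 protein-coding genes (0.438%) had one. Nothing particular to the complex is therefore read from the counts below. Of 14 genes for subunits, Anapc10 was the only one in the table. The other subunits include Anapc2 and Anapc11, which form the catalytic cullin and RING core, and Cdc16, Cdc23 and Cdc27, which carry tetratricopeptide repeats and form the arc of the complex. The 2 coactivator genes Cdc20 and Fzr1 had 0 sites, as did 3 genes for ubiquitin-conjugating enzymes, among them Ube2c and Ube2s. The same held for 6 inhibitors and regulators, such as Fbxo5 (Emi1) and the checkpoint protein Mad2l1, and for 16 substrates, such as Ccnb1 (cyclin B), Pttg1 (securin) and Gmnn (geminin). All 41 genes of this list were matched to the annotation, and Anapc10 was the 1 with sites. A list of 15 cullin-RING ligase genes and other genes with a DOC domain, Cul7, Cul9, Herc2 and Mycbp2 among them, also had 0 genes with sites. A gene can be missing from the table because it had too few reads, because its sites were under 10% or because the authors did not select them. Its absence does not show that its RNA was unmethylated.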

How the data were processed

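The deposited table gives, per the file headers, a methylation rate per site and library as a fraction between 0 and 1, multiplied to percent here. After DNase, RNA was bisulfite converted with 0.5% unmethylated lambda RNA added, and stranded libraries were read as 150-base paired ends, per the labels' protocols. The builds mm10 and GRCm38 come from the submitters' processing notes; not given in the sources used here are the aligner, caller, coverage minimum, conversion rate and the rule behind the choice of sites.

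Columns were matched to libraries by reading the first number as the biological and the second as the technical replicate. The table cannot settle that reading, so the other was tried. As a check of positions, 2 of the 8492 sites fell in RefSeq promoter windows, and both are C on the gene's strand. They lie in Ranbp9 and Ppm1m, not in Anapc10, and 2 sites are too few to settle the coordinates. Joining of sites, counts of separated replicates and correlations were tested on simulated data. Members, lists and alternatives were chosen with earlier results of these data known. Named are Anapc10, list genes with sites, flanking genes, 4 comparison genes and the 3 genes nearest in their library means; other names were added for background or after values were seen. No sequence is printed, since no genome sequence of the sites was used here. The planned coverage minimum and genotype comparison were not run. Python 3.11.15, numpy 2.4.6, pandas 2.3.3 and matplotlib 3.10.9 were used.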

Additional observations from a re-analysis of the deposited data

Results flagged for a closer look

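Library means were examined for 1 library apart from the rest in 11 values (the gene, its 3 stretches and its 7 blocks, which overlap), and 1 was found. In block 2 the second library of biological replicate 1 averaged 96%, and the other 3 libraries lay between 99.4% and 100%, so the gap made up 0.848 of the range. Chance marks about 1 in 20 groups of 4 independent values; these libraries are 2 technical pairs and 2 of them stand at the upper limit of 100%, so that rate need not hold here. The range here is 4.00 points and comes from 3 of 15 sites, at which this library read 80%. These levels may rest on few reads, which was not tested. The larger fall of the same library in block 4, to 55.9%, was not marked, since the other libraries also spread there, from 83.8% to 98.3%.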

How the results depend on the processing

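Of 33 alternatives over 8 results, 13 could not move a value beyond the SD by construction (leaving out 1 of 2 replicates, pairing columns the other way for a mean, merging a single site) and say nothing about stability. Of the other 20, 14 moved a level by less than the SD or a count by no more than 1.5 times, and 6 did not. Among the 14, extending the gene span by 1 kb added no site, so it says nothing about stability either. The gene mean of 83.8% became 67.8% without sites that have another within 10 bases, which leaves 5 sites. It was 68.0% with each stretch counted once and 76.4% with each block counted once (the latter chosen after seeing the data), because block 7, a single site at 35.4%, then weighs as much as the others. It ran from 80.4% to 87.2% with a biological replicate left out and from 81.9% to 85.8% with a library left out. The first stretch fell from 84.6% to 70.1% when sites within 10 bases were merged, which makes block 2 count as 1 site. Joining sites up to 100 bases apart gave 7 groups in place of 3. When columns were paired by their second number instead, 36 sites (20.8%) in place of 66 (38.2%) separated the replicates (background 26.3% and 30.4%), and the SD of the gene mean was 1.13 in place of 4.80. No paired analysis was possible because levels of wild-type libraries were not analysed here. No depth was analysed, so its limits are not given.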
